A study of Mus musculus with 12 samples.

Results

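Collagens are triple-helical proteins of the extracellular matrix, and the 36 genes described here encode collagen chains whose transcripts were measured in tumours formed by 3 lines of mouse lung adenocarcinoma. They were chosen by name, as collagen chains apart from Col17a1, from the probe sets that carry a single gene symbol, and each symbol was represented by its brightest probe set, judged by the average of all 12 arrays. All 36 could be tested, out of 18193 genes in all. By protein class they comprise 10 fibrillar chains, 6 basement membrane chains of type IV, 3 chains of the beaded filament type VI, the anchoring fibril chain Col7a1, 3 short-chain network collagens, 8 FACIT chains (which sit on the surface of other fibrils), 3 transmembrane collagens and 2 multiplexins.

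Affymetrix arrays were hybridised with RNA from 12 tumour samples, 4 of each line. Both mice from which the lines came carried the alleles p53R172H∆g/+ and K-rasLA1/+, so mutant p53 and K-ras are shared by all groups and no wild-type control was included. The line 344SQ was grown from a subcutaneous lesion and is labelled highly metastatic; 393LN was grown from a mediastinal lymph node of the other mouse and is labelled intermediately metastatic; 393P was grown from the primary lung tumour of that same animal and is labelled non-metastatic. The lines were uncloned populations of tumour cells passaged in serum-containing medium, and the frozen tissue was dissected tumour grown in syngeneic hosts, so host stroma contributes RNA. The host strain and age, the site of growth and whether the 4 samples of a line came from separate animals are not given in the sources used here, so the p-values measure the spread between these samples only. The difference between 344SQ and the other lines cannot be told apart from the difference between these mice. In such tissue, fewer cells of a type and less RNA per cell cannot be told apart either.

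Fibrillar collagens form the rope-like fibrils that give tissue its tensile strength: type I and type III are the abundant ones in stroma, and type V, type XI and type XXVII are minor chains, with type V known to start and thin growing fibrils. Type IV chains assemble into the sheet-like network of basement membranes, and type VI chains, as a molecule of Col6a1, Col6a2 and Col6a3, form beaded filaments around cells and next to basement membranes. In tumours, much of the collagen is known to be made by fibroblasts, although tumour cells also make some.

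The promoters below are taken from RefSeq on the build GRCm38.p6. Those of Col6a1, Col6a2 and Col5a3 are shown because these 3 genes passed the test in 344SQ against both 393 lines, that of Col6a3 because it is the third chain of the type VI molecule, and that of Col1a2 is set beside them as an abundant chain that did not pass the test. Each is the 250 bases before the annotated start, written 5′ to 3′ on the strand of the gene. Capitals mark matches, on either strand, to 4 motifs. The letters TATAAA were searched as the core of the motif bound by the general transcription machinery. The letters CCAAT were searched as the element bound by the factor NF-Y. The letters GGGCGG were searched as the GC box, and such a match appears as CCGCCC where it lies on the opposite strand. The letters TGACTCA were searched as the consensus of the factor AP-1, and none of the marked matches overlap each other.
Col6a1 (chr10:76726045-76726294, minus strand): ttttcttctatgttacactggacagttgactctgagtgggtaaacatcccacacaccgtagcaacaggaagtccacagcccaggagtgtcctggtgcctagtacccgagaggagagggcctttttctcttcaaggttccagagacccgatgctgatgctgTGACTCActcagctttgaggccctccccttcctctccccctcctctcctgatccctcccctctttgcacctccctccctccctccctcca
Col6a2 (chr10:76623631-76623880, minus strand): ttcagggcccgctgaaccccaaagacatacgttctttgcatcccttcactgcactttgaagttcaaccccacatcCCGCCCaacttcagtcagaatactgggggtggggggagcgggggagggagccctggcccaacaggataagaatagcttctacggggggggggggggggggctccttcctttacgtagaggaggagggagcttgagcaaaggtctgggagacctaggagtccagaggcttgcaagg
Col6a3 (chr1:90843972-90844221, minus strand): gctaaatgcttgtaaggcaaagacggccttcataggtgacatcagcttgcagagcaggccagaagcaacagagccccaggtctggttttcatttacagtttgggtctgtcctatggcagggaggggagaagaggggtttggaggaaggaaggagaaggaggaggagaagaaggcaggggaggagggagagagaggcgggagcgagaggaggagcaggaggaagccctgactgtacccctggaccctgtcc
Col5a3 (chr9:20815068-20815317, minus strand): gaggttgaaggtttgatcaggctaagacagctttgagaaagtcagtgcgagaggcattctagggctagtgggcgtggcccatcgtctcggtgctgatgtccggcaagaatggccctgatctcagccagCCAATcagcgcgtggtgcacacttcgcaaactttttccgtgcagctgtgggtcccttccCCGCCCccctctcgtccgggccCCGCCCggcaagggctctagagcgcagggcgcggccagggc
Col1a2 (chr6:4505368-4505617, plus strand): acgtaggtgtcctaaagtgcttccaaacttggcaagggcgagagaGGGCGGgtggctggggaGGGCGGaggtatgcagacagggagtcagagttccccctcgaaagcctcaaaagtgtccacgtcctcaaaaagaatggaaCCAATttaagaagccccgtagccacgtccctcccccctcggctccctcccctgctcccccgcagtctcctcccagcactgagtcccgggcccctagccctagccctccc

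No motif searched was common to the promoters of the 3 type VI chains. The promoter of Col6a1 held the AP-1 consensus at 90 to 84 bases before the start, that of Col6a2 held a GC box at 175 to 170, and that of Col6a3 held none of the 4 motifs. Col5a3 had a CCAAT box at 122 to 118 and GC boxes at 63 to 58 and 41 to 36, and Col1a2 had a CCAAT box at 109 to 105 and GC boxes at 205 to 200 and 188 to 183. Among the 29 members with an entry, 18 (62.1%) held a GC box, against 33% of 27018 promoters of the same length; 10 held a CCAAT box (34.5%, and 34.5% of all), 4 a TATA box (13.8%, and 13% of all) and 1 the AP-1 consensus (3.45%, and 4.43% of all). The base composition of the windows, which bears on how often a GC-rich motif occurs, was 56.0% G and C for Col6a1, 59.2% for Col6a2, 57.2% for Col6a3, 62.8% for Col5a3 and 62.0% for Col1a2, beside a median of 52.0% over all promoters. Over the 29 members with an entry it ran from 35.2% in Col3a1 to 76.4% in Col5a1. The share with a GC box was not compared with promoters of like composition, so its excess cannot be told apart from composition. The members Col1a1, Col2a1, Col4a3, Col5a2, Col9a3, Col12a1 and Col14a1 were not matched. By position, Col6a1 and Col6a2 are neighbouring genes on chromosome 10, on the same strand with starts 102414 bases apart, whereas Col6a3 lies on chromosome 1. The start of Col4a1 lies 21 bases from that of Col4a2 on the opposite strand.

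2 of the 3 type VI chains and 3 minor fibrillar chains were higher in 344SQ tumours than in 393P tumours, by 1.62-fold to 2.13-fold, and no collagen was lower by the test. The words rose and fell are kept for genes with an adjusted p under 0.05 by limma, and levels are log2(intensity + 16), on which 1 unit is a doubling. Of the 36 collagens, 5 rose in 344SQ over 393P (13.9% of the members, beside 4.86% of all genes), namely Col6a1, Col6a2, Col5a1, Col5a3 and Col27a1. The count was 3 when 344SQ replicate 2, 344SQ replicate 3, 393P replicate 3 or 393P replicate 4 was left out, each time without Col5a1 and Col27a1. None fell by limma, whereas 5.62% of all genes did; at an unadjusted p under 0.05, 10 members were higher and 0 lower. The median change of the family was 0.21, beside a median of -0.00066 over all genes, with 25 members above 0 and 11 below. In 9 members all 4 344SQ values lay above all 4 393P values (25% of the members, beside 8.12% of all genes), and in none did they all lie below (8.62% of all genes). As a set chosen with results in view, the members carry no test of their own, and only these shares are given.

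Against 393LN, 3 collagens rose in 344SQ (8.33% of the members, beside 3.99% of all genes): Col6a1, Col6a2 and Col5a3. No member fell by limma, beside 6.92% of all genes, and at an unadjusted p under 0.05 there were 11 higher and 2 lower. The median change was 0.16, beside -0.02 over all genes. In 4 members the 344SQ values all lay above those of 393LN (11.1% of the members, beside 6.72% of all genes), namely Col6a1, Col6a2, Col5a3 and Col13a1, and in none all below (10.7% of all genes). The comparisons of 344SQ with 393P and with 393LN share the 4 344SQ arrays and so are not independent of each other. Between 393LN and 393P, the lines from the same mouse, 0 collagens rose and 0 fell by limma, beside 1.75% and 0.698% of all genes; at an unadjusted p under 0.05, 1 member (Col4a3) was higher and 0 lower.

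**Figure D1:**
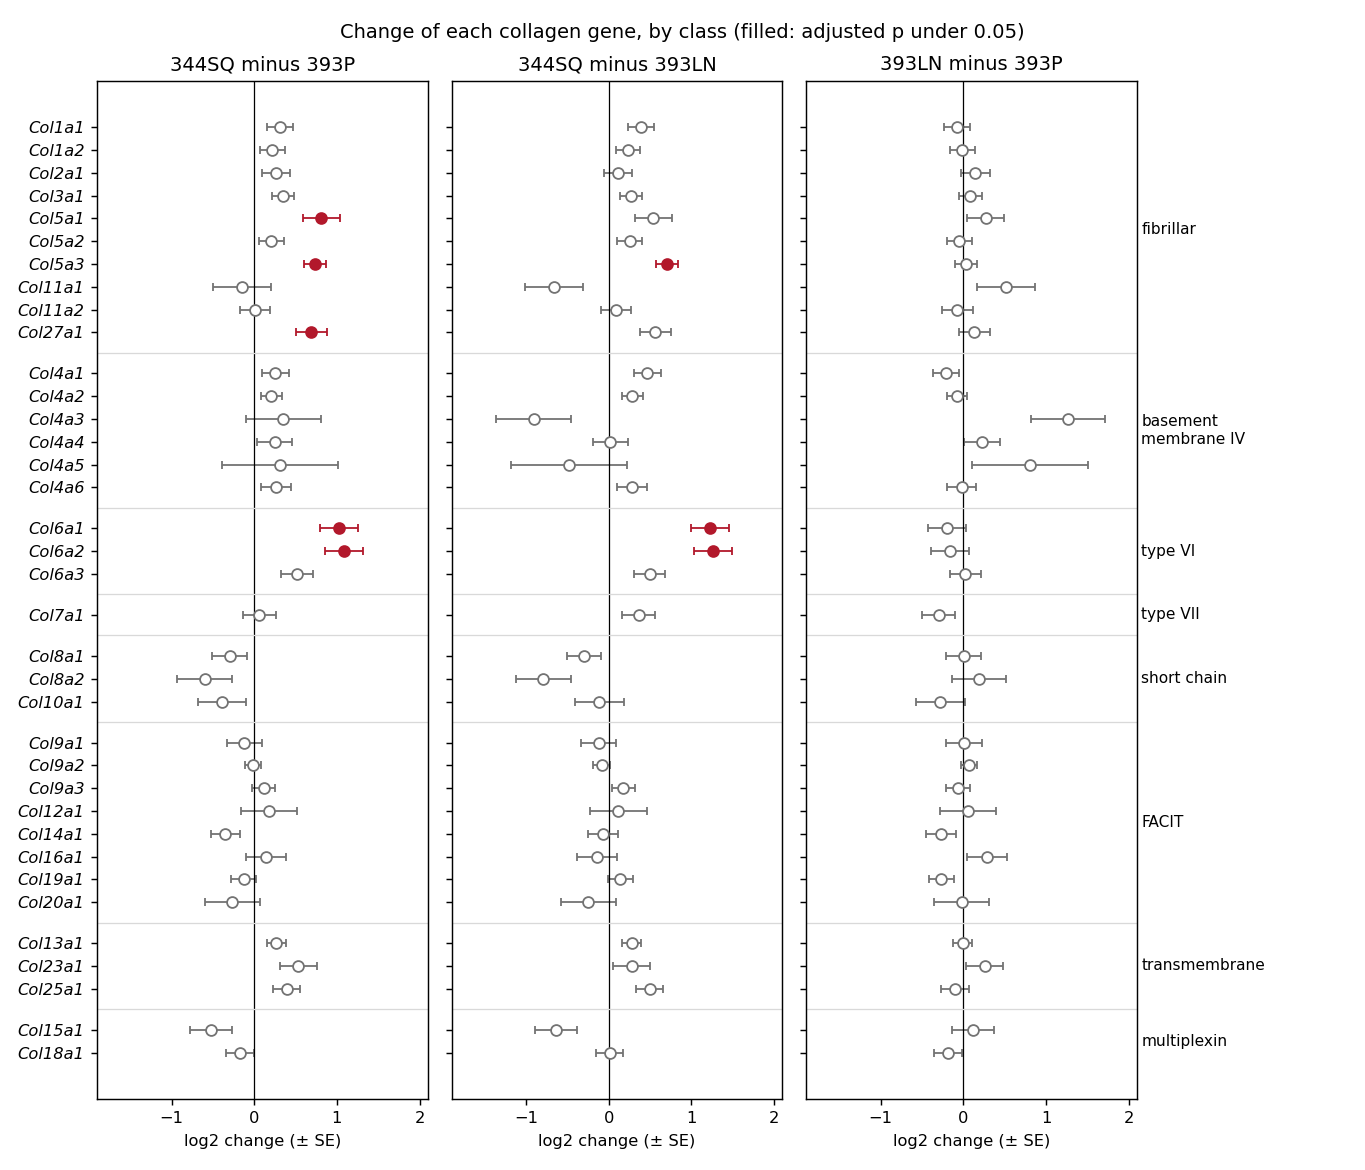
Log2 change of each of the 36 collagen genes, grouped by class, in the 3 comparisons; points are differences of 4-array means, bars are ± 1 SE, and filled points have an adjusted p under 0.05. Filled points appear for 5 genes in 344SQ minus 393P, for 3 in 344SQ minus 393LN and for none in 393LN minus 393P.

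Among the brightest probe sets of the collagens, those of Col6a1 and Col6a2 gave the largest called changes; a less bright probe set of Col27a1, described further on, changed by 1.42 against 393P. Col6a1, the first chain of the type VI molecule, lay at 12.67, 12.65, 12.68 and 12.61 on 344SQ replicates 1 to 4, at 11.34, 11.12, 11.22 and 12.06 in 393LN, and at 11.10, 11.99, 12.03 and 11.42 in 393P. All 344SQ values were above all the others and close together (SD 0.03, n = 4), while the 393 lines spread more widely (SD 0.42 in 393LN and 0.45 in 393P), with 393LN replicate 4 and 393P replicates 2 and 3 at the upper end. Col6a1 rose by 1.02 ± 0.23 (SE) over 393P, or 2.03-fold (adjusted p = 0.0145), and by 1.22 ± 0.23 over 393LN, or 2.33-fold (adjusted p = 0.00610).

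Col6a2, its partner chain, lay at 12.78, 12.90, 12.94 and 12.75 in 344SQ, at 11.55, 11.29, 11.26 and 12.26 in 393LN, and at 11.57, 12.08, 12.09 and 11.30 in 393P. The same 3 arrays were again the highest of the 393 lines, and none reached a 344SQ value. The rise was 1.09 ± 0.23 over 393P, or 2.13-fold (adjusted p = 0.00992), and 1.26 ± 0.23 over 393LN, or 2.39-fold (adjusted p = 0.00505). A different probe set for Col6a2 gave 1.11 and 1.25 (adjusted p = 0.0121 and 0.00735 over all probe sets), so the difference did not rest on 1 probe set.

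Col6a3, the long chain of the type VI molecule, whose values were looked at because it completes that molecule, did not pass the test. It lay at 12.27, 12.52, 12.50 and 12.28 in 344SQ, at 11.44, 12.09, 11.77 and 12.31 in 393LN, and at 11.64, 12.02, 12.20 and 11.66 in 393P. The 344SQ values were all above those of 393P but overlapped with 393LN through its replicate 4. The change was 0.52 ± 0.19 against 393P (adjusted p = 0.111) and 0.50 ± 0.19 against 393LN (adjusted p = 0.118), and whether it differs from the changes of Col6a1 and Col6a2 was not tested. Between 393LN and 393P none of the 3 chains passed the test, with changes of -0.20 for Col6a1, -0.17 for Col6a2 and 0.02 for Col6a3.

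**Figure D2:**
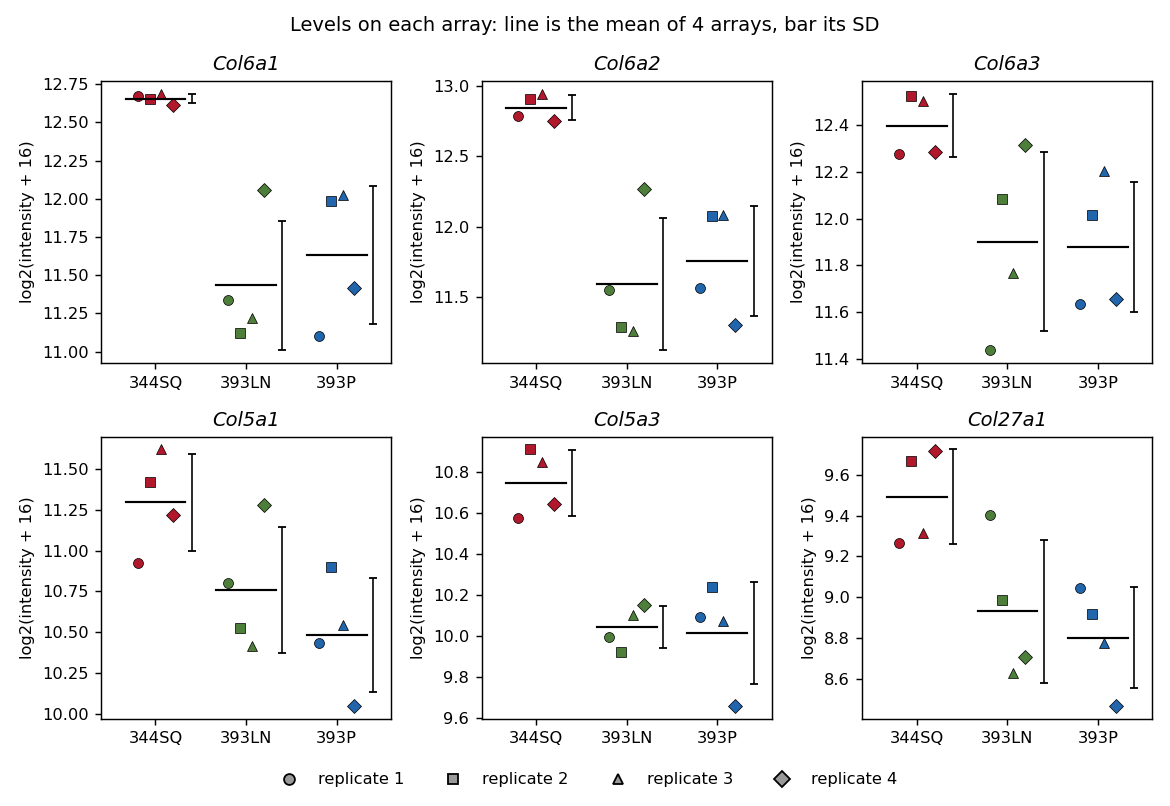
Levels of the 3 type VI chains and of the 3 fibrillar chains that rose, as log2(intensity + 16), on each of the 12 arrays; marker shape gives the replicate number, which only names an array, the line is the mean of 4 arrays and the bar its SD. The 344SQ values of Col6a1, Col6a2 and Col5a3 lie above every 393 value, whereas 393LN overlaps with 344SQ in Col6a3, Col5a1 and Col27a1.

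Of the 10 fibrillar chains, 3 rose over 393P and 1 over 393LN, beside 4.86% and 3.99% of all genes, with medians of 0.28 and 0.26 for the class, and none fell. The risers were minor chains. Col5a3, a chain of the fibril-starting type V, lay at 10.58, 10.91, 10.85 and 10.64 in 344SQ, at 9.99, 9.92, 10.10 and 10.15 in 393LN, and at 10.09, 10.24, 10.07 and 9.66 in 393P. Every 344SQ value was above every 393 value. Its rise was 0.73 ± 0.13 over 393P, or 1.66-fold (adjusted p = 0.00447), and 0.70 ± 0.13 over 393LN, or 1.63-fold (adjusted p = 0.00625). A further probe set for Col5a3 was dim, with a mean of 5.32 near the floor of 4.09, and showed changes of -0.04 and 0.04; averaging both probe sets lowered the changes to 0.35 and 0.37 and ended both calls (adjusted p = 0.164 and 0.122).

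Col5a1, the main chain of type V, lay at 10.92, 11.42, 11.62 and 11.22 in 344SQ, at 10.80, 10.53, 10.42 and 11.28 in 393LN, and at 10.44, 10.90, 10.55 and 10.05 in 393P. The lowest 344SQ value stood just above the highest of 393P, and 393LN replicate 4 lay among the 344SQ values. Col5a1 rose by 0.81 ± 0.22 over 393P, or 1.75-fold (adjusted p = 0.0381), while the change against 393LN was 0.54 ± 0.22 (adjusted p = 0.151). Other probe sets for Col5a1 gave similar changes over 393P, of 0.83 and 0.71, with adjusted p = 0.0700 and 0.0505. The call ended when any of 344SQ replicates 2, 3 and 4 or 393P replicates 1, 3 and 4 was left out (adjusted p up to 0.108), and also with a pseudocount of 1 (adjusted p = 0.0505).

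Col27a1, a chain known from cartilage whose gene is also transcribed elsewhere, lay at 9.27, 9.67, 9.32 and 9.72 in 344SQ, at 9.40, 8.99, 8.63 and 8.71 in 393LN, and at 9.04, 8.92, 8.77 and 8.47 in 393P. There was no overlap with 393P, and a single 393LN array, replicate 1, reached the 344SQ range. Col27a1 rose by 0.69 ± 0.19 over 393P, or 1.62-fold (adjusted p = 0.0353), with 1.42 for its other probe set (adjusted p = 0.0418). Against 393LN the change was 0.56 ± 0.19 (adjusted p = 0.0787), and it passed the test after quantile normalization (adjusted p = 0.0438), without 393LN replicate 1 (0.0246) and also without the dimmest 50% of genes. The call over 393P ended when any of 344SQ replicates 2, 3 and 4 or 393P replicates 2, 3 and 4 was left out (adjusted p up to 0.0963).

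The chains of the abundant type I and type III fibrils did not pass the test in any comparison. Col1a2, which pairs with Col1a1 in type I collagen, lay at 13.74, 13.70, 13.94 and 13.66 in 344SQ, at 13.53, 13.58, 13.15 and 13.85 in 393LN, and at 13.51, 13.76, 13.58 and 13.31 in 393P. All lines overlapped, and the values lay close to the top of the scale, where the brightest probe set of any array was at 14.42. The change of Col1a2 was 0.22 against 393P (95% interval -0.10 to 0.54, adjusted p = 0.432) and 0.23 against 393LN (-0.09 to 0.55, adjusted p = 0.363). Col1a1 changed by 0.31 against 393P (-0.04 to 0.66, adjusted p = 0.274) and by 0.39 against 393LN (0.04 to 0.73, adjusted p = 0.149). These limma intervals are for single genes, without correction for the number tested.

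Col3a1, the type III chain, lay between 13.66 and 13.96 on the 344SQ arrays and between 13.22 and 13.57 on those of 393P, without overlap, while 393LN ranged from 13.29 to 13.83. Its change was 0.35 against 393P (adjusted p = 0.128) and 0.27 against 393LN (adjusted p = 0.241); a less bright probe set for Col3a1 gave 0.84 and 0.60 (adjusted p = 0.0868 and 0.220). Col5a2, the partner of Col5a1, changed by 0.20 and 0.25 (adjusted p = 0.481 and 0.325). The cartilage chains Col2a1, Col11a1 and Col11a2 were dim, meaning that their means lay in the lowest 40% of genes; Col11a1 was highest on 393LN replicate 4, at 9.11, and between 6.97 and 8.42 elsewhere.

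None of the 6 type IV chains of the basement membrane passed the test. Col4a1, which forms the common network with Col4a2, lay at 12.76, 12.32, 12.71 and 12.15 in 344SQ, at 12.16, 11.95, 12.11 and 11.87 in 393LN, and at 12.09, 12.48, 12.35 and 11.996 in 393P. Replicates 1 and 3 of 344SQ stood above all 393 arrays, and replicates 2 and 4 lay among them. The change of Col4a1 was 0.26 against 393P (adjusted p = 0.385) and 0.47 against 393LN (adjusted p = 0.0857), and without 344SQ replicate 4 the latter became 0.58 and passed the test (adjusted p = 0.0397). Col4a2 changed by 0.21 and 0.28 (adjusted p = 0.364 and 0.173).

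Col4a5, a chain of the more specialised type IV networks, was read on 344SQ replicates 1 to 4 at 9.23, 9.09, 8.98 and 5.41. Replicate 4 thus stood far below the others of its line, and below every 393 array, which ran from 7.91 to 9.11 in 393LN and from 7.39 to 8.45 in 393P. With all arrays the change of Col4a5 was 0.32 ± 0.70 against 393P (adjusted p = 0.851); without 344SQ replicate 4 it was 1.24 and passed the test (adjusted p = 0.0252). Against 393LN the change was -0.49 with that array and 0.44 without it, and it did not pass either way (adjusted p = 0.725 and 0.417). A further probe set for Col4a5 was dim, with a mean of 6.90. With all arrays it changed by 0.11 against 393P and -0.07 against 393LN (limma adjusted p = 0.909 and 0.940). The chains Col4a3, Col4a4 and Col4a6 were dim, and Col4a3 was highest on 393LN replicates 1 and 2, at 7.59 and 6.86, against 4.64 to 5.91 on all other arrays. For Col4a3 the difference of 1.26 between 393LN and 393P had an adjusted p of 0.179.

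Outside these classes no collagen passed the test in any comparison. Col7a1, the chain of the fibrils that anchor epithelium to the tissue below, lay at 9.86, 10.27, 9.59 and 9.86 in 344SQ, at 9.30, 9.66, 9.55 and 9.63 in 393LN, and at 9.50, 10.07, 10.28 and 9.47 in 393P. Its 344SQ values fell inside the range of 393P. The change was 0.06 against 393P and 0.36 against 393LN (adjusted p = 0.899 and 0.282).

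The 3 short-chain collagens, which form hexagonal nets, had negative changes in both comparisons of 344SQ, from -0.60 to -0.30 against 393P and from -0.79 to -0.11 against 393LN. Col8a1, a chain of vessel walls and basement membranes, lay at 11.22, 11.25, 11.34 and 11.04 in 344SQ, at 12.19, 11.60, 11.12 and 11.14 in 393LN, and at 11.28, 11.54, 11.72 and 11.51 in 393P. It overlapped in all lines, with 393LN replicate 1 the highest, and its change was -0.30 in both comparisons (adjusted p = 0.449 and 0.404). Col8a2 showed -0.60 and -0.79 (adjusted p = 0.310 and 0.153), and Col10a1, the collagen of growth plate cartilage, was dim.

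The 8 FACIT chains centred near 0, with medians of -0.07 against 393P and -0.08 against 393LN. Col12a1, which coats type I fibrils, lay at 11.40, 11.75, 11.71 and 10.93 in 344SQ, at 10.97, 11.04, 11.30 and 12.01 in 393LN, and at 10.25, 11.76, 11.82 and 11.26 in 393P. The lines overlapped widely, and the lowest reading, on 393P replicate 1, and the highest, on 393LN replicate 4, were both outside 344SQ. Its change was 0.18 against 393P and 0.12 against 393LN (adjusted p = 0.827 and 0.874). Col14a1, likewise a fibril coat, ran from 9.35 to 9.92 in 344SQ and from 9.86 to 10.21 in 393P, and its change of -0.35 did not pass the test (adjusted p = 0.272). Col16a1 changed by 0.14 and -0.15, and the remaining FACIT chains Col9a1, Col9a2, Col9a3, Col19a1 and Col20a1 were dim, with Col9a2 at the floor on 9 of 12 arrays.

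Among the transmembrane collagens, which are anchored in the surface of the cell that makes them, all 3 were higher in 344SQ than in 393P at an unadjusted p under 0.05 and none passed the adjusted test. Col13a1 lay at 8.84, 8.75, 8.98 and 8.80 in 344SQ, at 8.68, 8.45, 8.52 and 8.62 in 393LN, and at 8.31, 8.54, 8.70 and 8.74 in 393P. The 344SQ values lay above all 393 values by a narrow margin. The change of Col13a1 was 0.27 ± 0.11 against 393P and 0.28 ± 0.11 against 393LN (adjusted p = 0.165 and 0.143). Col23a1 and Col25a1 were dim and changed by 0.54 and 0.39 against 393P (adjusted p = 0.165 and 0.178). Col25a1 passed against both 393 lines when 393LN replicate 4 was left out (adjusted p = 0.0427 against 393P and 0.00450 against 393LN). The difference from 393P does not involve that array, so there only the p-value moved. A further probe set for Col25a1, near the floor with a mean of 4.17, changed by -0.25 against 393P. Averaging both probe sets lowered the changes to 0.07 against 393P and 0.25 against 393LN, and neither passed.

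The multiplexins, basement membrane collagens that carry sugar chains, did not pass the test. Col18a1, the parent of the fragment endostatin, lay at 11.71, 11.99, 12.07 and 12.19 in 344SQ, at 11.65, 11.74, 12.16 and 12.36 in 393LN, and at 12.09, 12.30, 12.27 and 11.98 in 393P. The lines overlapped, with a change of -0.17 against 393P and 0.01 against 393LN (adjusted p = 0.608 and 0.981). Col15a1 ranged from 9.38 to 10.54 in 344SQ, from 10.54 to 10.90 in 393LN and from 10.08 to 10.95 in 393P, and its changes of -0.52 and -0.64 did not pass (adjusted p = 0.241 and 0.135).

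Averaged by class on each array, type VI set 344SQ apart from the 393 lines most widely, while 393LN and 393P overlapped. Its mean was 12.58, 12.69, 12.71 and 12.55 on the 344SQ arrays, 11.44, 11.50, 11.42 and 12.21 in 393LN, and 11.44, 12.03, 12.11 and 11.46 in 393P. No 393 array reached a 344SQ array, and 393LN replicate 4 and 393P replicates 2 and 3 were the highest of their lines. The fibrillar mean was 10.13, 10.36, 10.39 and 10.29 in 344SQ, 10.09, 9.86, 9.90 and 10.32 in 393LN, and 9.93, 10.12, 9.94 and 9.80 in 393P. Here 344SQ stood above 393P, and 393LN overlapped with 344SQ through its replicate 4. The type IV mean was 8.84, 8.54, 8.76 and 7.81 in 344SQ, 8.95, 8.56, 8.33 and 8.35 in 393LN, and 8.18, 8.17, 8.23 and 8.29 in 393P. Its low 344SQ value was that of replicate 4, on which Col4a5 was low. The type IV means of 393LN, from 8.33 up, all lay above those of 393P, which reached 8.29. Class means were not tested.

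The smaller classes overlapped between 344SQ and at least 1 of the 393 lines. The transmembrane mean was 7.63 ± 0.14 (SD, n = 4) in 344SQ, 7.28 ± 0.19 in 393LN and 7.23 ± 0.19 in 393P. Short-chain means were 7.82 ± 0.17, 8.23 ± 0.19 and 8.25 ± 0.34 in the same order, and the multiplexin mean was 11.01 ± 0.22, 11.32 ± 0.23 and 11.36 ± 0.21. FACIT means were nearly level, at 7.53 ± 0.07 in 344SQ, 7.56 ± 0.14 in 393LN and 7.59 ± 0.21 in 393P. Over all 36 collagens the mean was 9.17 ± 0.12 in 344SQ, 9.05 ± 0.14 in 393LN and 8.99 ± 0.13 in 393P, a smaller difference than in type VI alone.

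**Figure D3:**
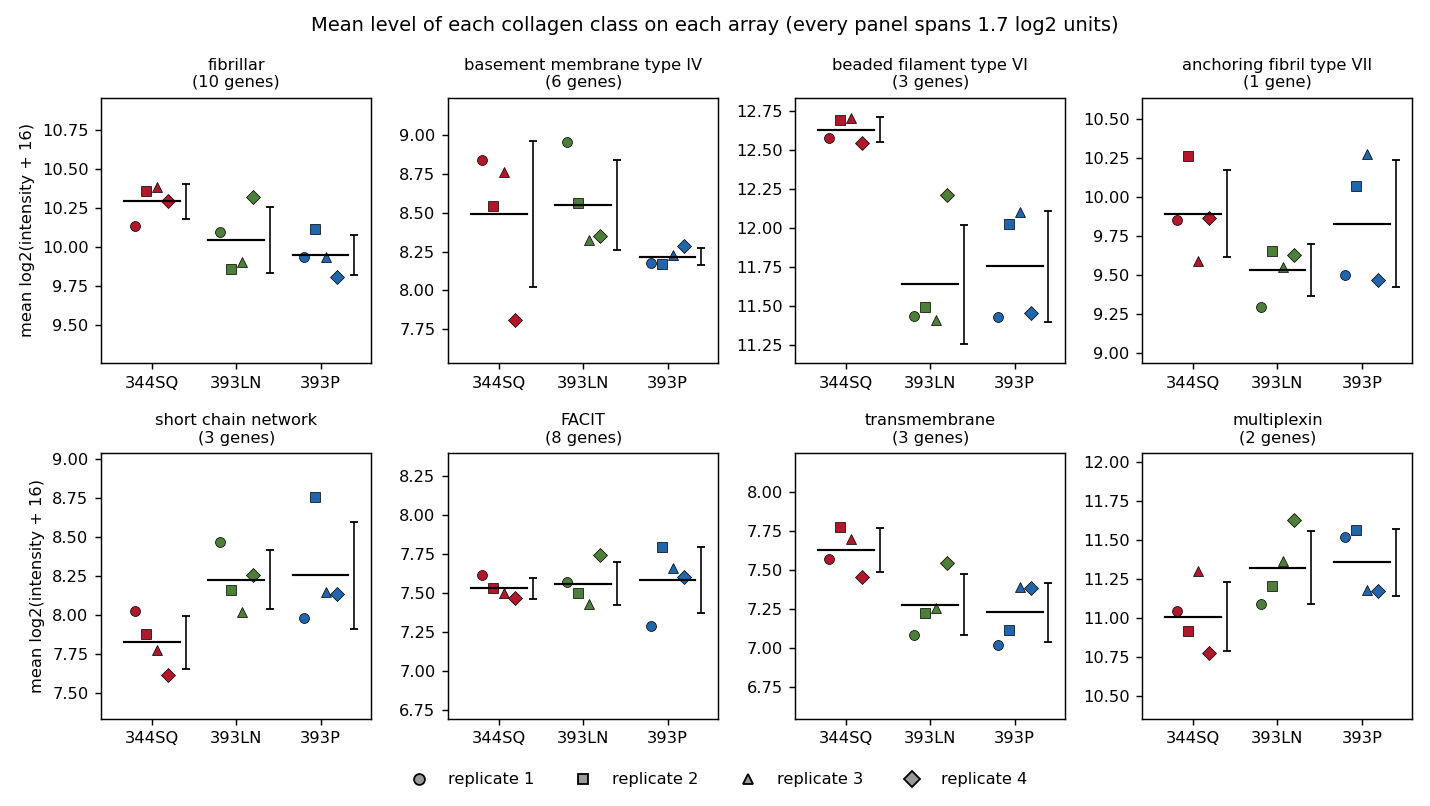
Mean log2(intensity + 16) of each collagen class on each array, 1 panel per class, all spanning the same range of log2 units; marker shape gives the replicate number, the line is the mean of 4 arrays and the bar its SD. The type VI panel shows 344SQ between 12.55 and 12.71 with all 393 arrays at or below 12.21, and the FACIT panel shows the lines level.

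Chains that join in 1 molecule were compared across the 12 arrays after the mean of each line was subtracted, in 6 pairs, with permutation within lines and Benjamini-Hochberg adjustment over the pairs. Chains of different molecules were not paired, so whether partners vary together more than other collagens do was not tested. The neighbouring genes Col6a1 and Col6a2 had r = 0.90 (permutation p = 0.0225, adjusted 0.0338) and rho = 0.90 (adjusted 0.0130), and r was 0.93 without the 2 arrays farthest from the median. The highest deviations of Col6a1 were on 393LN replicate 4 and 393P replicates 2 and 3 and the lowest on 393P replicate 1, while the 344SQ arrays hardly varied. This relation missed the threshold when any of 393LN replicates 1 and 4 or 393P replicates 2 and 3 was left out, with r between 0.82 and 0.91 there and an adjusted p up to 0.233. Col6a1 and Col6a3, on different chromosomes, had r = 0.69 (permutation p = 0.0771, adjusted 0.0926), rho = 0.66 (adjusted 0.134), and r = 0.50 without the 2 farthest arrays.

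For type I, Col1a1 and Col1a2 had r = 0.74 (permutation p = 0.00545, adjusted 0.0172), rho = 0.77 (adjusted 0.0130) and r = 0.73 without 2 arrays. For type IV, Col4a1 and Col4a2, whose starts lie 21 bases apart on opposite strands, had r = 0.81 (permutation p = 0.0127, adjusted 0.0254), rho = 0.80 (adjusted 0.0130) and r = 0.84 without 2 arrays. For type V, Col5a1 and Col5a2 had r = 0.84 (permutation p = 0.00572, adjusted 0.0172), rho = 0.84 (adjusted 0.0130) and r = 0.71 without 2 arrays. Each of these 3 relations missed the threshold without 393LN replicate 4 or without 393P replicate 2 (adjusted p up to 0.0643), and that of type IV also after quantile normalization (r = 0.71, adjusted p = 0.0657). Col8a1 and Col8a2 did not pass, with r = 0.41 (permutation p = 0.264, adjusted 0.264), rho = 0.34 (adjusted 0.335) and r = 0.07 without 2 arrays.

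**Figure D4:**
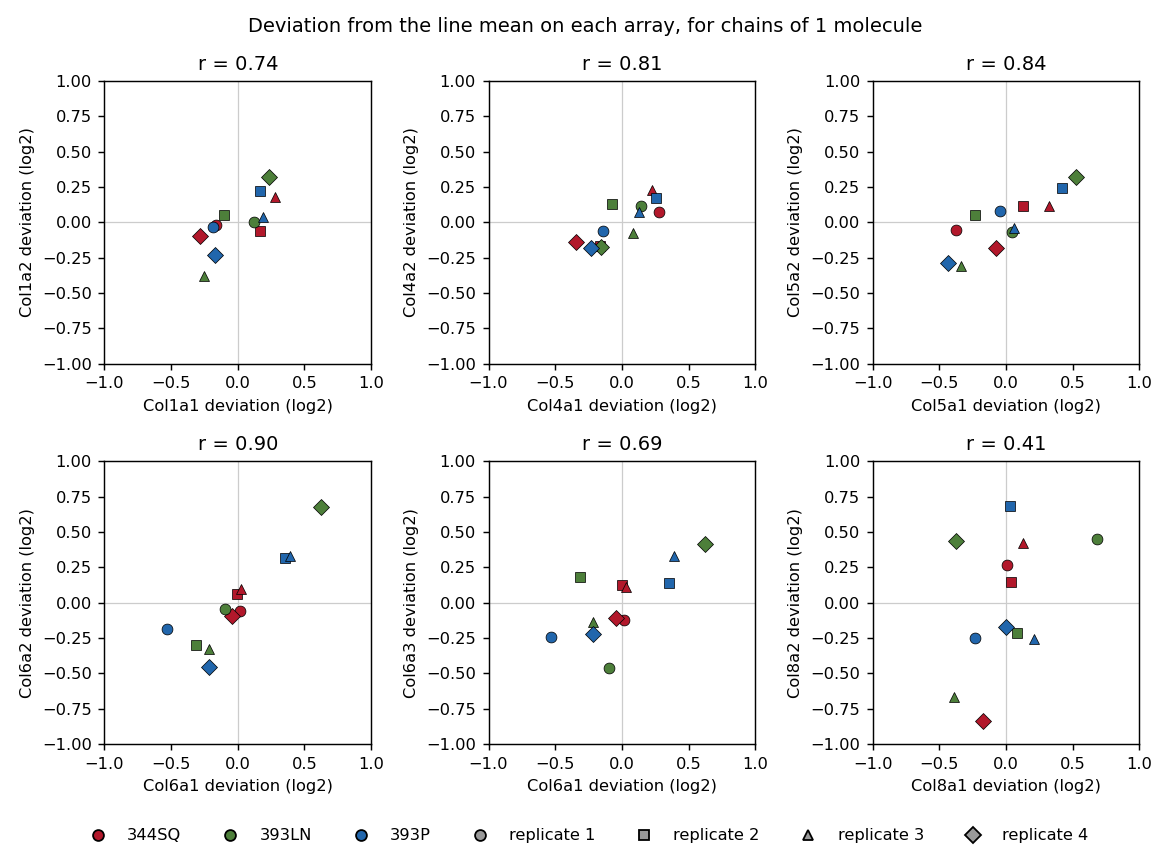
Deviation of each array from the mean of its line, in log2 units, for 6 pairs of chains that form 1 molecule; each point is an array, coloured by line and shaped by replicate number. The points of Col6a1 and Col6a2 follow a line (r = 0.90), with the 344SQ arrays bunched near 0, whereas those of Col8a1 and Col8a2 scatter (r = 0.41).

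Values of cell type markers are given here beside the collagens. The 14 fibroblast markers had a median change of 0.45 in 344SQ against 393P and of 0.42 against 393LN. Against 393P 1 rose, Prrx1, by 0.81 (adjusted p = 0.0285), which is close to the 4.86% of all genes, and none fell. Of the 14 changes against 393P, 13 were positive and 1 negative, with 5 higher and 0 lower at an unadjusted p under 0.05. Against 393LN 0 markers passed by limma, with 11 changes positive and 3 negative. At an unadjusted p under 0.05, 5 markers were higher there and 0 lower. Their mean level ran from 10.10 to 10.33 over the 344SQ arrays, from 9.60 to 10.16 in 393LN and from 9.49 to 10.03 in 393P. Within the 393 lines, 393LN replicate 4 (10.16) and 393P replicate 2 (10.03) had the highest fibroblast means, and these arrays were also high in type VI. The match was not complete. In 393P the highest type VI mean (12.11) was on replicate 3, whose fibroblast mean was 9.92. The lowest (11.44) was on replicate 1, whose fibroblast mean was 9.86. On 393LN replicate 4, whose fibroblast mean lay in the 344SQ range, Col5a1 (11.28) and Col6a3 (12.31) lay within the 344SQ values, and Col6a1 (12.06), Col6a2 (12.26), Col5a3 (10.15) and Col27a1 (8.71) lay below them. The part of the fibroblast markers in the collagen differences was not tested.

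**Figure D5:**
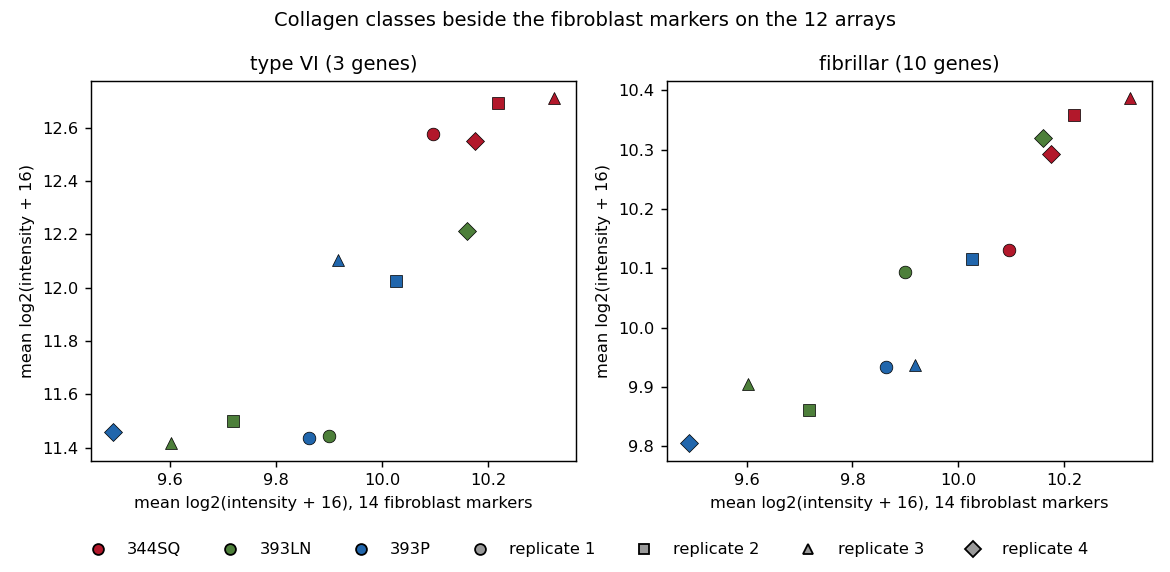
Mean log2(intensity + 16) of the 3 type VI chains (left) and the 10 fibrillar chains (right) against the mean of 14 fibroblast markers, 1 point per array, coloured by line and shaped by replicate number. 393LN replicate 4, at a fibroblast mean of 10.16, lies at 12.21 for type VI, below the 344SQ arrays, and at 10.32 for the fibrillar chains, among them.

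Other marker lists gave these values beside the collagens. Of 14 epithelial tumour cell markers, 8 fell in 344SQ against each 393 line, and their mean ran from 9.75 to 10.09 in 344SQ, from 11.83 to 12.31 in 393LN and from 11.92 to 12.37 in 393P; the splicing factor Esrp1 was near the floor in 344SQ, with a mean of 4.45. Of 12 pericyte and smooth muscle markers, 2 fell against 393P and 1 against 393LN. The shares of all genes lower were 5.62% and 6.92%, and the 1 is near the latter. Against 393P all 12 changes were negative (median -0.33), with 5 lower and 0 higher at an unadjusted p under 0.05. Against 393LN 6 were negative (median -0.02). Of 12 macrophage markers, 3 and 2 fell, beside the same shares. Against 393P 8 of them were lower and 1 higher at an unadjusted p under 0.05. Of 14 endothelial markers, 0 changed against 393P by limma (0 in either direction at an unadjusted p under 0.05). Against 393LN only Flt1 rose, beside 3.99% of all genes, and 10 of the 14 changes were negative (median -0.08). Cartilage markers, which would accompany Col2a1, Col9a1 and Col11a2, were dim in 9 of 11 cases and bone markers in 6 of 6 measured, and none of either list passed by limma in any comparison (0 at an unadjusted p under 0.05). Skeletal muscle markers were highest on 393LN replicate 1, at a mean of 9.11 against 6.64 to 7.86 elsewhere, and fat markers ranged from 7.75 to 9.70 in 344SQ, from 7.80 to 8.87 in 393LN and from 7.76 to 8.90 in 393P; none of either list passed the test by limma, with 1 fat marker higher against 393P and 1 muscle marker lower against 393LN at an unadjusted p under 0.05. Their part in the collagen results was not tested. Array medians lay between 7.19 and 7.29, and the 3′ to 5′ ratio of the actin control, which reads RNA degradation, stood at 1.47 on 393P replicate 1 and 1.04 to 1.19 elsewhere; without that array Col6a1, Col6a2 and Col5a3 still passed against both 393 lines.

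Of 17 measured genes that fold and modify procollagen, 4 rose and 1 fell in 344SQ against 393P, beside 4.86% and 5.62% of all genes. Against 393LN 1 rose and 0 fell, beside 3.99% and 6.92% of all genes, and the 1 is near that share. Colgalt1, which adds galactose to hydroxylysine of collagens, rose by 1.40 ± 0.15 over 393P (adjusted p = 0.000131) and by 1.43 ± 0.15 over 393LN (adjusted p = 0.000161). Crtap, a partner of prolyl 3-hydroxylase, rose by 0.99 over 393P (adjusted p = 0.000788), and it also rose in 393LN over 393P, by 0.61 (adjusted p = 0.0410). P3h1, that hydroxylase, rose by 0.63 (adjusted p = 0.0128) and Creb3l1, a transcription factor known to act on collagen genes, by 1.25 (adjusted p = 0.0293). P4ha2, a subunit of prolyl 4-hydroxylase, fell by 1.09 against 393P (adjusted p = 0.00523).

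Other steps of the pathway are given by their counts, to be read against the same shares of all genes. Of 6 procollagen processing genes measured, 0 passed by limma in any comparison, with 2 higher against 393P, 1 higher against 393LN and 1 lower in 393LN against 393P at an unadjusted p under 0.05. Among 5 crosslinking enzymes, Lox, a lysyl oxidase, rose over 393P by 0.94 (adjusted p = 0.0160), beside 4.86% of all genes. In that comparison 1 enzyme was higher and 0 lower at an unadjusted p under 0.05, and 3 of the 5 changes were negative (median -0.05). Against 393LN 0 passed by limma, with 1 higher and 0 lower at an unadjusted p under 0.05, and 3 changes were negative (median -0.04). Among 13 collagen receptors, the integrin chain Itga2 rose over 393LN by 0.38 (adjusted p = 0.0365), beside 3.99% of all genes. At an unadjusted p under 0.05, 2 receptors were higher and 2 lower in 344SQ against each 393 line. Their changes were positive in 8 and negative in 5 against 393LN, and positive in 7 and negative in 6 against 393P. Among 16 fibril-associated proteoglycans and regulators, Aspn (asporin) fell against 393LN by 0.66 (adjusted p = 0.0434), beside 6.92% of all genes. Most of that list went the other way. Against 393LN 12 of the 16 changes were positive (median 0.18), with 4 higher and 2 lower at an unadjusted p under 0.05. Against 393P 0 passed by limma, and 11 of the 16 changes were positive (median 0.11). At an unadjusted p under 0.05, 5 were higher there and 0 lower.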

How the data were processed

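The deposited table holds probe set intensities of 12 one-colour Affymetrix arrays on a linear scale, 4 per line. How the authors summarised and normalized them is not stated in any source here; each value is 2 raised to a power with 2 decimals, with 1 as the lowest, so a log2 table preceded the deposit. The design text names a smaller chip of this family than the 45101 probe sets of the table call for. Arrays carry no depth, and their number limits the precision.

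Intensities were taken as log2(intensity + 16), which understates changes near the floor of 4.09. Of 34945 probe sets with 1 gene symbol, the one with the highest mean was kept for each of 18193 genes, without a filter. One mean per line was fitted with limma 3.58.1 (lmFit, eBayes) in R 4.3.3, with 9 residual degrees of freedom and two-sided p-values adjusted by Benjamini-Hochberg over all genes, called under 0.05. Other probe sets were fitted separately and adjusted over all probe sets. Pairs of chains were tested with 100000 two-sided permutations within lines (scipy 1.17.1). The scripts were tested on simulated data. No columns were left unused (0), and no arrays were identical (0).

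Values on every array are given for members called in any comparison and for the member with the highest mean of each class, and up to 3 called genes are named per list; Col6a3, Col4a5, P3h1, Creb3l1 and the other members with values were added after their values were seen. Members, classes and lists were chosen with earlier results of these data known. Alternatives were quantile normalization, median centring, a pseudocount of 1 or 64, tests without the dimmest 25% or 50% of genes, the mean of all probe sets, fitting only the lines compared, eBayes with trend and robust settings, and leaving out each array. Promoters are from RefSeq (GRCm38.p6), matched by symbol for 29 of 36 members.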

Additional observations from a re-analysis of the deposited data

Results flagged for a closer look

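Within a line, 13 of 132 groups of 4 arrays had 1 array far from the other 3 by Dixon's test at its 95% critical value. Chance flags about 1 in 20 groups, but the count cannot be set against that rate. For Col9a2 the other 3 arrays of each line were all at the floor, so any higher reading was flagged. Class means also share values with the genes they contain. Among members that were not dim, Col4a5 was at 5.41 on 344SQ replicate 4 against 8.98 to 9.23 on the other arrays of that line, and Col8a2 was at 8.72 on 393P replicate 2 against 7.77 to 7.85. The type VI mean was 12.21 on 393LN replicate 4 against 11.42 to 11.50, and the mean over all collagens was 8.996 on 344SQ replicate 4 against 9.22 to 9.26.

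The other cases were dim genes. Col25a1 was at 6.47 on 393LN replicate 4 against 5.70 to 5.74, and Col23a1 at 6.88 on 393LN replicate 1 against 7.51 to 7.56. Col10a1 was at 6.01 on 393P replicate 2 against 4.88 to 5.05. Col20a1 was at 4.24 on 393LN replicate 3 against 5.62 to 5.79, and at 4.72 on 393P replicate 1 against 5.49 to 5.59. Col2a1 was at 4.55 on 393P replicate 4 against 4.09 to 4.11. Col9a2 was at 4.12 on 344SQ replicate 2, at 4.46 on 393LN replicate 2 and at 4.19 on 393P replicate 3, with the others of each line at the floor of 4.09.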

How the results depend on the processing

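The count of collagens higher in 344SQ than in 393P, 5 with all arrays, ran from 3 to 6 when 1 array was left out, and was 3 without 344SQ replicate 2, 344SQ replicate 3, 393P replicate 3 or 393P replicate 4; the calls lost were those of Col5a1 and Col27a1. Under the 9 other settings it was 4 or 5. The count against 393LN, 3 with all arrays, ran from 2 to 4 over all settings. Col6a1 and Col6a2 passed against both 393 lines under all 21 settings, with adjusted p up to 0.0432 for Col6a1 and up to 0.0322 for Col6a2. No collagen was called lower in 344SQ under any of them, and no called change turned its direction. Quantile normalization and median centring moved the median of all genes by at most 0.03. No paired analysis was possible because the labels give no replicate numbers that groups share. Values near the floor, as for Col9a2, bear on changes only weakly, and 4 arrays per line limit what could pass.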
